A study of Mus musculus with 26 samples.

Results

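Growth arrest in lymphocytes is set by a small group of proteins that slow the cell cycle or hold it in G1. Cdkn1a (p21) and Cdkn1b (p27) encode inhibitors of cyclin-dependent kinases, and the Gadd45 genes encode small stress-inducible proteins that bind MAP kinase kinase kinases and cell cycle kinases. Btg1 and Btg2 encode antiproliferative proteins that recruit the CCR4-NOT deadenylase to messenger RNA and help keep T cells quiescent. Trp53inp1, Mdm2 and Ccng1 are targets of the transcription factor p53: TRP53INP1 promotes p53-dependent arrest and apoptosis, MDM2 is the ubiquitin ligase that degrades p53, and cyclin G1 takes part in the feedback on MDM2 and p53. Double positive (DP) thymocytes, which carry both CD4 and CD8, divide rapidly on entering this stage and then leave the cycle while the T-cell receptor alpha locus is rearranged.

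The 10 genes Cdkn1a, Cdkn1b, Gadd45a, Gadd45b, Gadd45g, Btg1, Btg2, Trp53inp1, Mdm2 and Ccng1 were described in DP cells of 3 tissues. They were chosen by name from 13765 genes in the table, and 9 of the 10 were among the 9106 genes that passed the filter on low values; Gadd45g did not pass and was examined on its own. The cells came from aortic arch, mediastinal adipose tissue and thymus of female C57BL/6J mice aged 8 weeks, with no transgene or treatment. Tissue of 5 mice was joined in each pool, and each tissue had 4 pools, measured in 9 libraries from arch, 8 from adipose tissue and 9 from thymus (1 to 3 per pool). Viable cells were sorted as CD4+ CD8b+ and T-cell receptor negative, and RNA of 200 cells entered each library. Arch and adipose tissue were digested with enzymes while digestion of thymus is not stated, so digestion and tissue cannot be told apart.

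Against thymus, Cdkn1a, Cdkn1b and Gadd45b were called higher and Trp53inp1 lower in arch pools. In adipose pools Cdkn1a was called higher and Trp53inp1 lower. Btg1 and Btg2 were the most abundant members per kilobase in all 3 tissues, and their levels were not called different in any comparison. No member was called between arch and adipose tissue. Values are normalised read counts, the deposited reads per gene after scaling by a size factor per pool. Log2 changes are given with their standard error (SE) and were called at a Benjamini-Hochberg adjusted p under 0.05 in a limma fit of log2(normalised count + 20) over all genes tested. Several calls depended on the fit. By edgeR on recovered reads, only Cdkn1b in arch and Trp53inp1 in adipose tissue were called against thymus. Without arch pools 2 and 4, which were rich in transcripts of other cells, only Cdkn1a was called in arch. The arch call of Trp53inp1 was lost in 6 of 8 fits that left out a single pool.

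**Figure D1:**
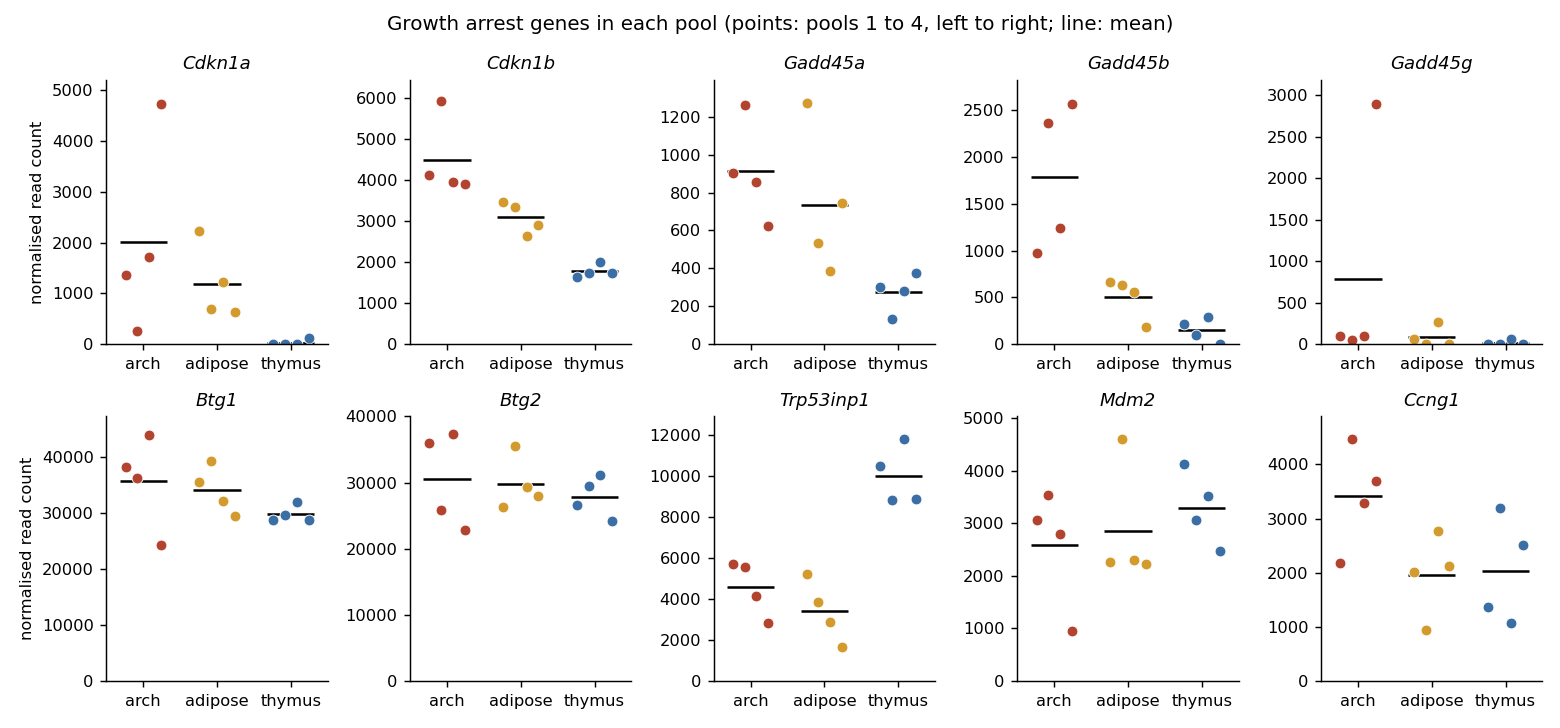
Normalised read counts (vertical axes, linear, each gene on its own scale) of the 10 genes in each pool of arch, adipose tissue and thymus; points are pools 1 to 4 from left to right and lines are means. Cdkn1a lies between 257 and 4727 in arch pools and between 627 and 2237 in adipose pools, above all thymus pools (at most 125), while Trp53inp1 lies below every thymus pool in both tissues.

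Whole reads recovered from the deposited values ranged from 11577253 to 34599519 per pool and 9091 to 11894 genes were detected, so that 3 reads, taken as the limit of detection, corresponded to a normalised count of 1.70 to 5.71. All 12 defining DP markers, among them Cd4, Cd8a, Cd8b1, Rag1, Rag2 and Ptcra, were above 0 in every pool. Their summed level was 9420 to 10089 CPM (reads scaled to a common total) in arch, 7096 to 15225 CPM in adipose tissue and 20585 to 24141 CPM in thymus. Neither extrathymic range overlapped that of thymus (exact two-sided permutation p = 0.0286 for each, the smallest that 4 pools against 4 allow; 0.193 after adjustment over 27 marker tests). Arch pools 2 and 4 and adipose pool 1 stood apart by transcripts of other cells: the summed markers of fibroblasts, smooth muscle, macrophages, B cells, endothelium, adipocytes and innate lymphocytes (44 genes) reached 3772, 6269 and 2483 CPM there, against 330 to 527 CPM in the other arch and adipose pools and 446 to 819 CPM in thymus. In such bulk samples fewer cells of a type and less RNA per cell cannot be told apart.

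The start regions of 9 members were taken from RefSeq (assembly GRCm38.p6), as windows of 250 bases before to 50 bases after each annotated start; Cdkn1a has 2 such windows and Trp53inp1 is named only. Of these, 2 are shown because they hold full motifs and belong to members that behaved differently: Cdkn1a, the member with the widest difference against thymus, and Btg2, which was not called in any comparison. The upstream Cdkn1a window lies at chr17:29090729-29091028 on the plus strand. Its capitals mark 2 decamers that each match the p53 consensus in full. They begin at -73 and -51 from the annotated start and are 12 bases apart, within the spacer searched. Directly after the second decamer comes tgacatgttc, left in lower case because its first base departs from the consensus. Which of these decamers act together as a p53 response element was not tested. The Btg2 window lies at chr1:134079106-134079405 on the minus strand, and its capitals mark a full cyclic AMP response element (CRE, TGACGTCA) at -166.
Cdkn1a upstream start: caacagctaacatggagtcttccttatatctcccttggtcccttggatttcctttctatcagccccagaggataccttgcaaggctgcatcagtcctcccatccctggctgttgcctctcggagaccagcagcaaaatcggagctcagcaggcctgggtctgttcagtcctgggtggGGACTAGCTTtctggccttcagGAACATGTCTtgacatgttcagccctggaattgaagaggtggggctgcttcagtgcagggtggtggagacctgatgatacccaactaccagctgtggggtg
Btg2 start: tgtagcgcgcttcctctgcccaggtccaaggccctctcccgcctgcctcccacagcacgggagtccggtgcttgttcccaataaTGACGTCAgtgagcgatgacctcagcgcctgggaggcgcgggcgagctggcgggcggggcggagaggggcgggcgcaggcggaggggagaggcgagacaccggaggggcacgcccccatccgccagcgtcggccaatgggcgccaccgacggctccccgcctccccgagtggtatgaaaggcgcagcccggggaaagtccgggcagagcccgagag
A pair of p53 decamers with a spacer of at most 13 bases, searched by its consensus on both strands, was found in 24 of 32851 mouse windows of 300 bases (0.0731%), and among the members' windows in that of Cdkn1a alone. Single p53 decamers were found in 8.36% of all windows and also at -40 of Gadd45a, -186 of Mdm2 and -185 of Ccng1. The full CRE occurred in 1.79% of all windows, and the shorter TGACG that it contains in 20.8%, including those of Cdkn1b, Btg1, Btg2 and Mdm2. The AP-1 motif TGANTCA (7.81% of all windows) and the heat shock core GAANNTTC (7.86%) were in none of the members' windows. Such a match describes the letters of the window and is not a measurement of binding.

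Cdkn1a (chromosome 17, positions 29090976 to 29100727 of GRCm38, plus strand) encodes p21, the inhibitor of cyclin-dependent kinases through which p53 halts cells in G1. Its normalised counts in pools 1 to 4 were 1358, 257, 1714 and 4727 in arch, 2237, 684, 1222 and 627 in adipose tissue, and 0.566, 0, 0 and 125 in thymus. Every arch and every adipose pool lay above every thymus pool, and in thymus the gene rested on 1 read in pool 1 and 152 reads in pool 4. Cdkn1a rose in arch against thymus, with a mean of 2014 ± 1912 in arch and 31.5 ± 62.6 in thymus (SD, n = 4 each), a 64.0-fold ratio and a log2 change of 5.33 ± 1.00 (limma, adjusted p = 0.00253). It also rose in adipose tissue against thymus, with a mean of 1192 ± 746 in adipose tissue, a 37.9-fold ratio and a log2 change of 5.01 ± 1.00 (limma, adjusted p = 0.00611). Both ratios rest on thymus pool 4, without which the thymus mean was 0.189, and the arch mean was 1110 without arch pool 4. Both calls held with any single pool left out (log2 changes of 4.72 to 6.09 for arch and 4.64 to 5.72 for adipose tissue). By edgeR on the recovered reads neither passed, with adjusted p = 0.0706 for arch and 0.154 for adipose tissue; over all alternatives that left out no single pool, the adjusted p ranged over 0.00216 to 0.0706 for arch and 0.00275 to 0.154 for adipose tissue.

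The highest Cdkn1a pool of each extrathymic tissue was one rich in other cells' transcripts. Arch pool 4, with 4727, had fibroblast markers at 6074 CPM, against 125 to 313 CPM in the other arch pools and 88.9 to 298 CPM in thymus, and adipose pool 1, with 2237, had B-cell markers at 1232 CPM. Arch pool 2 was rich in smooth muscle (1850 CPM) and macrophage (973 CPM) markers and had the lowest arch value of Cdkn1a, 257. The other arch and adipose pools, whose summed markers of other cells were below the thymus maximum of 819 CPM, also lay above all thymus pools. Arch pools 1 and 3 had 1358 and 1714 with 515 and 527 CPM of such markers. Adipose pools 2, 3 and 4 had 684, 1222 and 627 with 526, 330 and 484 CPM. That sum includes genes that thymus pools also show, such as Gsn, and single lists differed. Smooth muscle markers reached 66.6 and 14.1 CPM in arch pools 1 and 3, against at most 3.31 CPM in thymus. Fibroblast markers without Gsn were 22.7 CPM in arch pool 1, against at most 3.83 CPM in thymus. In adipose pools 2, 3 and 4 these lists were at most 0.503 and 0.168 CPM, below the thymus maxima. Macrophage markers were at 0 in adipose pools 2 and 4, and adipose pool 3 had 3.82 CPM, all of it Mrc1. Without arch pools 2 and 4 Cdkn1a was still called in arch against thymus. The DP markers were lower in both extrathymic tissues, as given above, and the part of that difference in the members' changes was not tested.

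**Figure D2:**
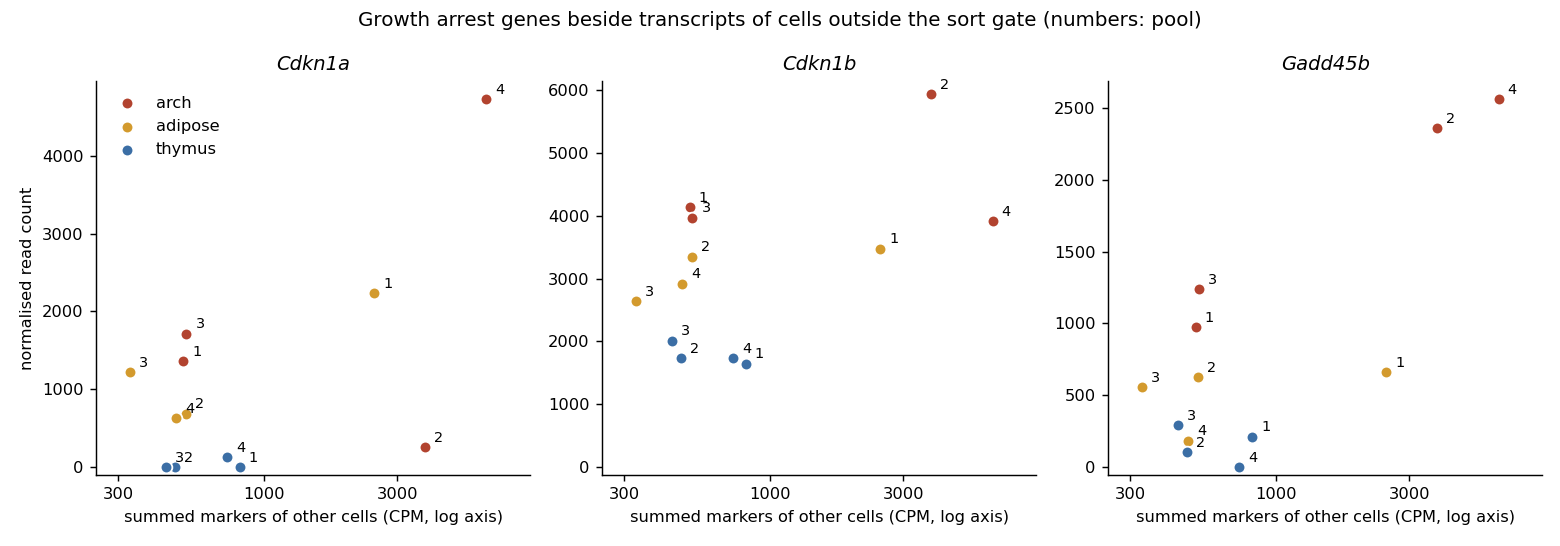
Normalised read counts (vertical axes, linear) of Cdkn1a, Cdkn1b and Gadd45b in each pool against the summed CPM of 44 markers of cells outside the sort gate (horizontal axes, logarithmic); colours are tissues and numbers are pools. Arch pools 1 and 3 and adipose pools 2 to 4 have marker sums below the thymus maximum of 819 CPM (smooth muscle markers alone were 66.6 and 14.1 CPM in arch pools 1 and 3, against at most 3.31 CPM in thymus), and their Cdkn1a counts of 627 to 1714 lie above the thymus maximum of 125.

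Cdkn1b (chromosome 6, 134920401 to 134925513, plus strand) encodes p27, the inhibitor of cyclin E and CDK2 that accumulates in resting lymphocytes. Counts in pools 1 to 4 were 4134, 5929, 3965 and 3913 in arch, 3474, 3347, 2636 and 2917 in adipose tissue, and 1644, 1733, 2009 and 1731 in thymus. The 3 tissues did not overlap at all, with arch highest, adipose tissue between and thymus lowest. The gene rose in arch against thymus, with means of 4486 ± 967 in arch and 1779 ± 158 in thymus (SD, n = 4 each), a 2.52-fold ratio and a log2 change of 1.31 ± 0.28 (limma, adjusted p = 0.00816). In adipose tissue the mean was 3094 ± 387, and its log2 change of 0.79 ± 0.28 against thymus did not pass (limma, adjusted p = 0.191); DESeq2 on the recovered reads gave an adjusted p of 0.0116, in a range of 0.0116 to 0.234 over the alternatives that left out no single pool. In arch against thymus the call ended without arch pools 2 and 4 (adjusted p = 0.0562) and without the 3 pools of fewest reads per library (arch 2 and 4 and thymus 3; adjusted p = 0.0522), at log2 changes of 1.18 and 1.24; the alternatives ranged over 2.63e-07 to 0.0562. Those pools were at the same time among the poorest in reads and, in arch, the richest in markers of other cells, and the part of either in the result was not tested.

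The 3 Gadd45 genes differed in abundance and in how they were distributed. Gadd45b (chromosome 10, 80930073 to 80932204, plus strand), the member of the family induced by NF-kappaB and by TGF-beta, had counts of 975, 2359, 1239.7 and 2561 in arch pools 1 to 4, 661, 627, 556 and 184 in adipose pools and 212, 102, 291 and 0 in thymus pools. All arch pools lay above all adipose and all thymus pools, and adipose and thymus overlapped through adipose pool 4. Gadd45b rose in arch against thymus (means of 1783 ± 793 in arch and 151 ± 127 in thymus, SD, n = 4 each; 11.8-fold; log2 change 3.85 ± 0.90; limma, adjusted p = 0.0127). Arch pools 2 and 4, rich in transcripts of other cells, held its 2 highest values, and arch pools 1 and 3 were above all adipose and thymus pools as well. The call ended without those 2 pools (log2 change 3.28, adjusted p = 0.131), without the 3 pools of fewest reads per library (adjusted p = 0.0867) and by edgeR (adjusted p = 0.116), in a range of 0.00373 to 0.131 over the alternatives. In adipose tissue against thymus the log2 change was 2.05 ± 0.90 and did not pass (limma, adjusted p = 0.337).

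Gadd45a (chromosome 6, 67035096 to 67037457, minus strand), induced by DNA damage through p53, had counts of 905, 1261, 857 and 623 in arch, 1271, 533, 385 and 747 in adipose tissue and 303, 133, 283 and 376 in thymus. Both extrathymic tissues lay wholly above thymus, by a narrow margin in adipose tissue, where pool 3 at 385 stood next to the highest thymus pool at 376. Neither log2 change passed: 1.70 ± 0.67 in arch against thymus (limma, adjusted p = 0.138) and 1.31 ± 0.67 in adipose tissue against thymus (limma, adjusted p = 0.450). Of the alternatives, DESeq2 called the first (adjusted p = 0.0327, in a range of 0.0327 to 0.293). The antisense gene E230016M11Rik overlaps Gadd45a, as an unnamed transcript does Cdkn1a, and whether counting used strand is not given in the sources used here.

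Gadd45g (chromosome 13, 51846678 to 51848468, plus strand), the family member linked to cytokine signalling in T cells, was low outside a single pool. Its counts were 96.9, 45.7, 99.3 and 2892 in arch, 62.8, 0, 273 and 0 in adipose tissue, and 8.49, 0, 61.2 and 0 in thymus. Arch pool 4, the pool with fibroblast markers at 6074 CPM, held nearly all of the arch signal, and without it the arch mean was 80.6. Only 2 pools reached 100, so the gene was tested alone: exact two-sided permutation p = 0.0571 for arch against thymus, 0.543 for adipose tissue against thymus and 0.486 for arch against adipose tissue.

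Btg1 (chromosome 10, 96617006 to 96622809, plus strand) and Btg2 (chromosome 1, 134075170 to 134079120, minus strand) were expressed at high and similar levels everywhere. Btg1 had 38167, 36149, 43961 and 24282 counts in arch pools 1 to 4, 35490.4, 39265, 32153 and 29339.7 in adipose pools, and 28766, 29646, 31909 and 28682 in thymus pools. Btg2 had 36020.4, 25818, 37377 and 22841 in arch, 26376, 35560.3, 29366 and 27913 in adipose tissue, and 26656, 29541, 31118 and 24155 in thymus. The tissues overlapped for both genes, and arch pool 4 had the lowest value of each. Neither gene was called, and the 95% intervals were narrow. For Btg1 the log2 change was 0.23 in arch against thymus (interval -0.13 to 0.59) and 0.19 in adipose tissue against thymus (-0.18 to 0.55). For Btg2 it was 0.11 in arch against thymus (-0.27 to 0.48) and 0.09 in adipose tissue against thymus (-0.28 to 0.47). The sign of the Btg2 change in arch against thymus depended on scaling, since scaling to a common total gave -0.05. The spread between pools also differed: the coefficient of variation of Btg1 was 23.2% in arch, 12.6% in adipose and 5.05% in thymus. The genome annotation lists processed copies of Btg1 elsewhere in the genome, so reads of that gene could be split.

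Trp53inp1 (chromosome 4, 11156431 to 11174379, plus strand) ran opposite to the kinase inhibitors. Its counts were 5706, 5543, 4158 and 2823 in arch, 5191, 3863, 2884 and 1659.7 in adipose tissue, and 10480.4, 8791, 11765 and 8849.7 in thymus. Every arch and adipose pool lay below every thymus pool. Trp53inp1 fell in adipose tissue against thymus, with means of 3399 ± 1496 in adipose pools and 9971 ± 1429 in thymus pools (SD, n = 4 each), a ratio of 0.341 and a log2 change of -1.65 ± 0.33 (limma, adjusted p = 0.00570). This call held under every alternative, with adjusted p from 5.24e-05 to 0.0235. It also fell in arch against thymus, with a mean of 4558 ± 1349 in arch, a ratio of 0.457 and a log2 change of -1.17 ± 0.33 (limma, adjusted p = 0.0379). That second call was lost when arch pool 3, arch pool 4 or any single thymus pool was left out, with adjusted p between 0.0348 and 0.0934 over the single pools and log2 changes between -1.29 and -0.96. It was also lost without a filter on low values, by edgeR, and without arch pools 2 and 4 (adjusted p = 0.0824, 0.0730 and 0.149), and the alternatives that left out no single pool ranged over 0.00634 to 0.218.

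The other members of the p53 feedback were not called. Mdm2 (chromosome 10, 117688875 to 117710758, minus strand) had counts of 3069, 3532, 2799 and 950.0 in arch, 2265, 4609.5, 2302 and 2226 in adipose tissue, and 4133, 3063, 3509 and 2477 in thymus. The tissues overlapped, with the lowest value in arch pool 4 and the highest in adipose pool 2. Its log2 change was -0.48 ± 0.40 in arch against thymus (95% interval -1.33 to 0.37; limma, adjusted p = 0.515) and -0.26 ± 0.40 in adipose tissue against thymus (-1.11 to 0.59; limma, adjusted p = 0.876). Ccng1 (chromosome 11, 40748552 to 40755311, minus strand) had 2182, 4478, 3286 and 3689 in arch, 2010.0, 934, 2771 and 2116 in adipose tissue, and 1368, 3203, 1071 and 2516 in thymus. Its log2 change was 0.82 ± 0.43 in arch against thymus (95% interval -0.07 to 1.72; limma, adjusted p = 0.262) and -0.03 ± 0.43 in adipose tissue against thymus (-0.92 to 0.87; limma, adjusted p = 0.993), the adipose value changing sign to 0.02 under TMM scaling.

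**Figure D3:**
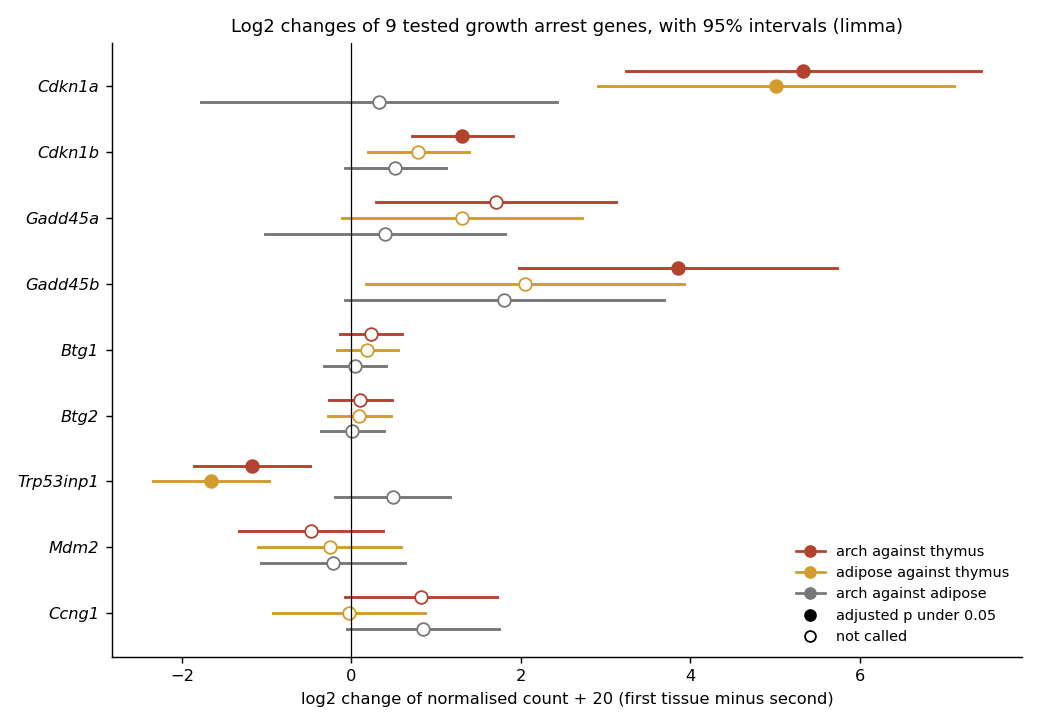
Log2 change (horizontal axis, first tissue minus second, on the scale of normalised count + 20) of the 9 tested genes with 95% intervals from limma, for arch against thymus, adipose tissue against thymus and arch against adipose tissue; filled points have an adjusted p under 0.05. Cdkn1a is called at 5.33 and 5.01 against thymus, Trp53inp1 at -1.17 and -1.65, and all 9 arch against adipose points are open.

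In arch against thymus, 3 of the 9 tested members were called higher, where 3.99% of all genes tested were, and 1 was called lower, against 2.58%. Pools did not overlap for 4 members on the higher side (Cdkn1a, Cdkn1b, Gadd45a and Gadd45b; 6.6% of all genes) and for 1 on the lower side (6.64%). In adipose tissue against thymus, 1 member was called higher (2.17% of all genes) and 1 lower (0.67%). There, pools did not overlap for 3 members on the higher side (5.48%) and 1 on the lower side (4.99%). The median log2 change of the 9 members was 0.82 in arch against thymus and 0.19 in adipose tissue against thymus, beside -0.20 and -0.01 over all 9106 genes. Both comparisons use the same 4 thymus pools. Over all genes, the calls in arch against thymus split into 363 higher and 235 lower, and into 296 and 343 after scaling to a common total, which moved the median of all genes to -0.35.

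Arch and adipose DP cells were also compared directly. No member was called by limma, where 0.0988% of all genes were called higher and 0.0769% lower, and none by edgeR or DESeq2; none had an unadjusted p under 0.05 in the limma fit, the lowest being 0.0590 for Gadd45b. Gadd45b and Cdkn1b were higher in all arch pools than in all adipose pools, as were 2.46% of all genes, and no member was lower in all of them (2.89% of all genes). The log2 change of Gadd45b was 1.80 ± 0.90 (95% interval -0.08 to 3.68; limma, adjusted p = 0.489) and that of Cdkn1b 0.52 ± 0.28 (-0.08 to 1.12; limma, adjusted p = 0.539). Ccng1 had a log2 change of 0.85 ± 0.43 (-0.05 to 1.75; limma, adjusted p = 0.496) and Trp53inp1 one of 0.48 (-0.20 to 1.17). For Cdkn1a the log2 change was 0.32 with an interval of -1.77 to 2.42, so that differences of several-fold in either direction were not detectable with these pools.

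Per kilobase of annotated exons of protein-coding transcripts, Btg2 ranked first among the 10 members and Btg1 second in each tissue. Btg2 averaged 11124 normalised counts per kilobase in arch, 10865 in adipose and 10160 in thymus, and Btg1 6755, 6456 and 5639. The third place differed: it was held by Gadd45b in arch at 1299.9 ± 578, by Mdm2 in adipose tissue at 906 ± 373 and by Trp53inp1 in thymus at 1845 ± 264 (SD, n = 4 each). From the third to the tenth place in arch the means ran from 1299.9 to 732 per kilobase with overlapping pools, so the order of neighbours there was within their spread. Cdkn1a was ninth in arch (741 ± 703), eighth in adipose tissue (439 ± 275) and last in thymus (11.6 ± 23.0).

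Across the 12 pools the members did not vary as a single group, and the following correlations of log2(normalised count + 20) are descriptions of points that share tissue and library preparation. Cdkn1b ran with Gadd45a (Pearson r = 0.863) and Gadd45b (r = 0.840), and Btg1 with Btg2 (r = 0.795). Cdkn1a and Trp53inp1 ran opposite (r = -0.763), as did Cdkn1a and Mdm2 (r = -0.576). Among 8378 other named genes tested, those most like Cdkn1a over the 12 pools were Tnfrsf1b (r = 0.960), Rce1 (0.942) and Odc1 (0.935). The genes most like Cdkn1b were Hmgn1 (r = 0.956), B4galt1 (0.945) and Gem (0.942), and those most like Gadd45b were Rheb (0.933), Hspd1 (0.914) and Sipa1l1 (0.909). Gadd45a was most like Cwc25 (r = 0.936), Junb (0.920) and Ppfia1 (0.917). Trp53inp1 was most like Cd2 (r = 0.922), Nfatc3 (0.911) and Rmnd5a (0.911). Btg1 was most like Cxx1b (r = 0.942), Btg2 like Hmgb3 (0.862), Mdm2 like Pigy (0.919) and Ccng1 like Cno (0.908).

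The other gene lists were chosen with earlier results of these data known. The shares of all genes tested were 3.99% called higher and 2.58% lower in arch against thymus, and 2.17% and 0.67% in adipose tissue against thymus. Other genes of the p53 pathway were mostly not called. Of 30 listed, 26 were tested, and Pmaip1, which encodes the BH3-only protein NOXA, was the 1 called in arch against thymus, where none was called lower. Its counts were 1069, 1269, 1779.9 and 1006 in arch, 195, 505, 538 and 14.2 in adipose tissue, and 50.9, 200.5, 0 and 0 in thymus. The log2 change in arch against thymus was 4.67 ± 1.10 (limma, adjusted p = 0.0136), with no call by edgeR (4.34, adjusted p = 0.204) or without arch pools 2 and 4 (4.81, adjusted p = 0.0648). In adipose tissue against thymus the 1 gene called was Trp53inp2, the paralogue of Trp53inp1 that acts in autophagy, with 3201 ± 581 in adipose pools and 545 ± 491 in thymus pools (SD, n = 4 each) and a log2 change of 3.55 ± 0.90 (limma, adjusted p = 0.0359). Neither edgeR nor DESeq2 called it, nor did the fit with any single adipose pool left out. In adipose DP cells Trp53inp2 was thus called higher and Trp53inp1 lower. The median log2 change of the 26 genes was -0.06 in arch and -0.19 in adipose tissue against thymus.

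Of 18 other CDK inhibitors, pocket proteins and BTG or TOB partners, 13 were tested. In arch against thymus Tob1, an antiproliferative relative of the Btg genes that also binds the CCR4-NOT complex, rose, with 2630 ± 815 in arch and 615 ± 326 in thymus and a log2 change of 2.28 ± 0.58 (limma, adjusted p = 0.0234). Cdkn2d, which encodes the CDK4 and CDK6 inhibitor p19INK4d, fell, with 4842 ± 2174 in arch and 9745 ± 1464 in thymus and a log2 change of -1.14 ± 0.31 (limma, adjusted p = 0.0359; SD, n = 4 each). Both calls were lost by edgeR, without a filter on low values and without arch pools 2 and 4, where the log2 change of Tob1 was 2.36 (adjusted p = 0.0786) and that of Cdkn2d -0.57 (adjusted p = 0.234). Of 8 fits that left out a single pool, 2 lost the Tob1 call (without arch pool 2 or thymus pool 4) and 6 lost the Cdkn2d call (without arch pool 2 or 4 or any thymus pool). None of the 13 was called in adipose tissue against thymus. The list median was 0.05 in arch and 0.12 in adipose tissue.

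Of 18 tested cyclins, CDKs and p27 turnover genes, Ccnd3 was the 1 called against thymus, lower in both tissues. Ccnd3 encodes cyclin D3, the D-type cyclin that drives expansion of immature thymocytes. Its counts were 13456, 5020, 12977 and 10342 in arch, 9130, 11011, 6678 and 8439 in adipose tissue, and 40730, 30679, 26355 and 38748 in thymus, and neither extrathymic tissue overlapped thymus. The log2 change was -1.78 ± 0.27 in arch (limma, adjusted p = 0.000369) and -1.95 ± 0.27 in adipose tissue against thymus (limma, adjusted p = 0.000201), and both calls held under every alternative tried. The median of the 18 was -0.72 in arch and -0.37 in adipose tissue.

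Of 16 proliferation markers, 14 were not called in arch against thymus and none was called in adipose tissue against thymus. Mcm4, a subunit of the replicative helicase, was higher in arch (log2 change 1.14 ± 0.33; limma, adjusted p = 0.0456) and Aurkb, the mitotic kinase Aurora B, lower (-3.61 ± 1.07; limma, adjusted p = 0.0495). Each call ended with single pools left out, in 7 of 8 fits for Mcm4 (all but that without arch pool 4; adjusted p up to 0.121) and 5 of 8 for Aurkb (arch pools 2 and 4 and thymus pools 1, 3 and 4; up to 0.134). Of 12 alternatives that left out no single pool, 5 lost the Mcm4 call and 8 the Aurkb call. In limma fits Mcm4 was not called after scaling to a common total (adjusted p = 0.0771) or by TMM (0.0521). Nor was it called with a pseudocount of 5 (0.0525), without a filter (0.0937) or with only the 2 tissues fitted (0.0555). Aurkb was not called by edgeR (adjusted p = 0.452) or DESeq2 (0.346), and without arch pools 2 and 4 its log2 change was -1.19 (adjusted p = 0.412). The list medians were -0.10 in arch and 0.16 in adipose tissue. 

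Among 9 tested MAP kinases that GADD45 proteins bind or act through, Map3k5, which encodes the stress kinase ASK1, had no read in any thymus pool. It had 396 ± 236 in arch and 898 ± 295 in adipose tissue (SD, n = 4 each), 147 and 333 times the limit of 3 reads per thymus pool. That limit covers counting error only, so these ratios are not lower bounds of the change. Map3k5 was called in both comparisons (limma, adjusted p = 0.00919 and 0.00129). Mapk9, which encodes JNK2, rose in adipose tissue, with 6295 ± 1702 against 2098 ± 575 in thymus and a log2 change of 1.57 ± 0.31 (limma, adjusted p = 0.00611). In arch Mapk9 had 4298 ± 1026, with all arch pools above all thymus pools and a log2 change of 1.04 ± 0.31 that did not pass (limma, adjusted p = 0.0544).

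A further list of 10 genes, set up as upstream quiescence regulators, held Foxo1, Foxo3, Klf2, Klf4, Tsc1, Tsc22d3, Nr3c1, Myc, Cebpb and Egr1. Of these, 5 rose in arch against thymus and none fell, while 2 rose and 1 fell in adipose tissue against thymus. The list is mixed, since Myc, Cebpb and Egr1 are not specific to quiescence, so these counts do not measure quiescence. The shares of all genes were 3.99% and 2.58% in arch and 2.17% and 0.67% in adipose tissue. Tsc22d3, which encodes the glucocorticoid-induced protein GILZ, had 46294, 42932, 47489.7 and 33463 counts in arch, 30188, 30474, 34890.1 and 23775 in adipose tissue, and 15392, 13006, 8321 and 5283 in thymus. Its log2 change was 2.12 ± 0.26 in arch and 1.61 ± 0.26 in adipose tissue against thymus (limma, adjusted p = 3.04e-05 and 0.000886), and both calls held under every alternative. Cebpb, a transcription factor of stress and inflammatory responses, rose by 5.72 ± 0.93 in arch and 4.88 ± 0.93 in adipose tissue on the log2 scale (limma, adjusted p = 0.000643 and 0.00402), but was not called by edgeR in either (adjusted p = 0.0578 and 0.181) nor by DESeq2 in adipose tissue (adjusted p = 0.0517). Klf2, a factor that maintains T-cell quiescence and the exit of mature T cells from the thymus, rose in arch by 5.45 ± 0.89 on the log2 scale (limma, adjusted p = 0.000664), with 3331 ± 269 in arch and 76.1 ± 56.6 in thymus (SD, n = 4 each). Klf2 is also one of the mature T-cell markers, whose summed level was 178 to 431 CPM in arch and 442 to 568 CPM in thymus. The other 2 genes that rose in arch, named after their values were seen, were Nr3c1 and Klf4. The glucocorticoid receptor gene Nr3c1 had a log2 change of 1.31 ± 0.29 (limma, adjusted p = 0.00982). Klf4 had no read in any thymus pool and 436 ± 292 in arch (limma, adjusted p = 0.0315). That mean is 162 times the limit of 3 reads, which covers counting error only. Without arch pools 2 and 4 neither was called, at log2 changes of 1.10 for Nr3c1 (adjusted p = 0.102) and 3.47 for Klf4 (adjusted p = 0.199). The Klf4 call was also lost without a filter (adjusted p = 0.0676) and in 7 of 8 fits that left out a single pool, all but that without arch pool 1. Egr1, an immediate early gene, fell in adipose tissue against thymus (log2 change -3.51 ± 0.81; limma, adjusted p = 0.0199). That call ended in 4 of 8 fits that left out a single pool (adjusted p up to 0.0824). It was also lost by edgeR (log2 change -2.71, adjusted p = 0.177) and in the limma fit without a filter (adjusted p = 0.0713).

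**Figure D4:**
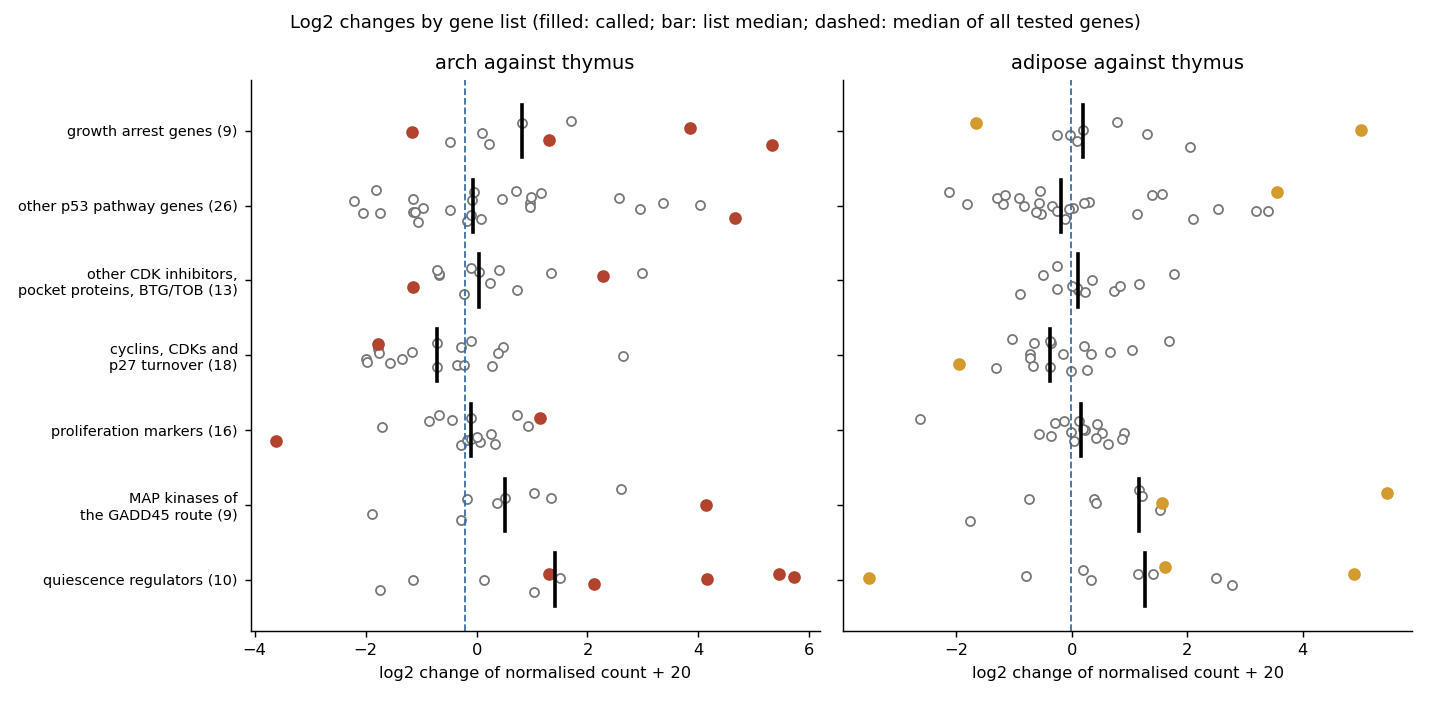
Log2 changes (horizontal axes, normalised count + 20) of the genes of each list in arch against thymus (left) and adipose tissue against thymus (right); filled points are called, black bars are list medians and the dashed line is the median of all 9106 genes (-0.20 and -0.01). The number of tested genes is given after each list name. The list labelled quiescence regulators is mixed and includes Myc, Cebpb and Egr1. Of its 10 genes 5 are filled on the higher side in arch, as is 1 of 26 other p53 pathway genes.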

How the data were processed

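Transcripts of sorted DP cells were measured as low-input RNA-seq of polyadenylated RNA, with 18 amplification cycles and single-end reads of 50 bp, per the labels' protocols. The submitters' processing notes name FastQC 0.11.5, STAR 2.6.0c and GRCm38. The tool that counted reads is not given in the sources used here, nor is the annotation. The authors deposited a normalised signal per gene and pool (13765 genes, 12 columns), with the libraries of a pool already combined. Every one of the 120369 values above 0 (100%) was a whole multiple, within 0.01, of the value of 1 read in its column, so whole reads were recovered.

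Since the deposited unit is not raw counts, limma 3.58.1 (R 4.3.3) with an intensity trend was fitted to log2(value + 20) for the 9106 genes that reached 100 in 4 or more columns, with tissue as the only term, and Benjamini-Hochberg adjustment ran over all of them; the pseudocount understates changes of low genes. edgeR 4.0.16 and DESeq2 1.42.0 on recovered reads, other pseudocounts, filters and scalings, and fits without pools were alternatives. CPM of markers came from recovered reads. Gene positions are those of GENCODE M21. The 95% intervals are from limma. Reads carry no molecular identifiers, so limits of 3 reads cover counting error only. The fit was tested on simulated counts with the same spread setting for every gene. That test does not cover the wider spread of members such as Cdkn1a. The members and the gene lists were chosen with earlier results of these data known. All 10 members were named, together with the called genes of smallest p from each list (at most 3 per comparison) and the genes most correlated with each tested member.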

Additional observations from a re-analysis of the deposited data

Results flagged for a closer look

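Each member was examined in each tissue for a pool lying far from the other 3, and 5 of 30 groups of 4 pools had one; chance alone marks about 1 in 20 such groups. The Cdkn1a count of 125 in thymus pool 4 was far above the other thymus pools, which had at most 0.566. The Cdkn1b count of 5929 in arch pool 2 stood above the other arch pools, at 3913 to 4134. The Gadd45g count of 2892 in arch pool 4 stood above 45.7 to 99.3 in the other arch pools, and its count of 61.2 in thymus pool 3 above at most 8.49 in the other thymus pools. The Mdm2 count of 4609.5 in adipose pool 2 stood above 2226 to 2302 in the other adipose pools.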

How the results depend on the processing

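In arch against thymus 4 members and 598 genes were called. The counts were 1 and 365 by edgeR, 5 and 1007 by DESeq2, 1 and 334 without arch pools 2 and 4, and 1 and 308 without the 3 pools of fewest reads per library; leaving out single pools gave 3 to 4 members and 404 to 620 genes. In adipose tissue against thymus 2 members and 259 genes were called, against 1 member by edgeR and 539 genes by DESeq2, with 2 members in every fit without a single pool and 169 (without adipose pool 4) to 250 genes. In arch against adipose tissue 16 genes were called, and 9 with a pseudocount of 5, 2 with no filter, 8 by edgeR, 168 by DESeq2, 0 without arch pools 2 and 4, 0 without the 3 pools, and 2 to 14 without single pools; no member was called in any of these. Changes near 0 turned sign: Btg2 in arch against thymus at -0.049 (common total), Ccng1 in adipose tissue against thymus at 0.019 (TMM), Btg1 at -0.062 and -0.00069 and Btg2 at -0.092 and -0.030 in arch against adipose tissue (common total and TMM), and Mdm2 there at 0.11 both without arch pools 2 and 4 and without the 3 pools. Without single pools the log2 changes ranged over -0.00219 to 0.23 for Btg2 in arch against thymus and -0.29 to 0.29 for Ccng1 in adipose tissue against thymus. In arch against adipose tissue those ranges were -0.29 to 1.08 for Cdkn1a, -0.071 to 0.21 for Btg1, -0.096 to 0.14 for Btg2 and -0.42 to 0.20 for Mdm2. Without its most abundant gene, a marker list's summed CPM changed the sign of its difference for adipocytes in arch against adipose tissue (9.48), for innate lymphocytes in arch against thymus (1.76), adipose tissue against thymus (30.0) and arch against adipose tissue (-28.2), and for mature T cells in arch (172) and adipose tissue (129) against thymus. The cause was not tested.

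The labels do not say whether pools of the same number come from the same mice. Deviations of same-numbered pools correlated between -0.03 and 0.08 over genes. For adipose pools 1, 2 and 4 the thymus pool with the highest correlation had the same number, and for adipose pool 3 it did not. Among arch pools only pool 2 matched its own number best, against thymus and against adipose tissue. With correlations this low, the numbers were not taken to pair pools, and whether pools share mice was not settled. With pool number as a replicate block 4, 2 and 0 members and 608, 243 and 12 genes were called in arch against thymus, adipose tissue against thymus and arch against adipose tissue.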
